A study of Mus musculus with 8 samples.

Results

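In cultured mouse optic nerves kept with or without lithium, 37 genes of DNA synthesis, nucleotide supply and replication repair were measured. The list had 38 members and was drawn up by function, as genes that act in S phase, without the MCM helicase. It was chosen with earlier results of these data known, so that counts beside all genes describe the list and do not test it. For 37 of them the array held a probe set annotated to that symbol only, and the probe set with the highest mean log2 signal over the 8 arrays stood for the gene. The same rule gave 18193 genes on the whole array. Chaf1a, which encodes the large subunit of a histone chaperone, had no such probe set and was not measured here.

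Before a cell divides it copies its DNA in S phase. Deoxynucleotides are made and balanced by a small set of enzymes, origins are licensed in G1 and fired in S phase, and polymerases, a sliding clamp and a ligase then build the new strands. Many of these genes are transcribed under E2F factors as cells leave G1, so that their transcripts are abundant in proliferating tissue and scarce in quiescent tissue, and in the adult optic nerve the cells that can still divide include glia, vascular cells and cells of the nerve sheath.

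Optic nerves of C57BL/6 mice aged P35 to P45 were kept for 3 days in vitro in organotypic medium with 20 mM lithium chloride or, as controls, with saline. The study asked how lithium changes gene expression in adult white matter. RNA from 4 lithium samples and 4 control samples, each of 6 nerves by the labels, was hybridised to 8 one-colour Affymetrix Mouse 430 2.0 arrays. The paper counts fewer nerves for the transcriptomic analysis than 4 samples of 6 nerves in each group would need. Whether replicate samples were separate cultures or animals is not stated in the sources used here. The p-values therefore cover the spread among these 8 samples alone, and this spread may be technical. The paper, unlike the labels, gives a C57/BL10 background, and it describes nerves cleaned of arachnoid. The values are signals from the MAS5 algorithm on a linear scale. Every array had the same trimmed mean of 100, and precision is limited by the small number of arrays. Median signals were 12.3 to 16.5 on lithium arrays and 14.8 to 17.5 on control arrays, and the log2 difference between 3′ and 5′ probe sets of Gapdh, a sign of RNA quality, was 0.35 to 0.53 on lithium arrays and 0.34 to 0.40 on control arrays. Signals were floored at 1 and taken to log2. Lithium minus control was fitted with limma over 45037 probe sets, and a gene was called at a Benjamini-Hochberg adjusted p under 0.05.

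The nucleotide supply genes Tk1 and Dut and the chromatin gene Uhrf1 fell in lithium, and no member rose. That is 3 of 37 members called lower and 0 called higher, against the 2.05% of all 18193 genes that were called lower and the 1.18% that were called higher. The other 34 members did not pass. Over the 37 members the log2 difference ran from -4.07 to 0.09, with a median of -0.63, where the median of all genes was -0.003. It was below 0 for 34 members (50.3% of all genes), under -1 for 16 members (6.93% of all genes) and within 0.5 of 0 on either side for 17 members (74.2% of all genes). On log2 of the signal plus 16, which damps differences at low signals, 8 members were under -1, against 2.18% of all genes. For 11 members every lithium signal lay below every control signal, which held for 8.92% of all genes, and for 0 members every lithium signal lay above every control signal, which held for 6.47%. At an unadjusted p under 0.05, 18 members were lower, against 12.6% of all genes. Since these are bulk samples, fewer cells of a type and less RNA per cell cannot be told apart.

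**Figure D1:**
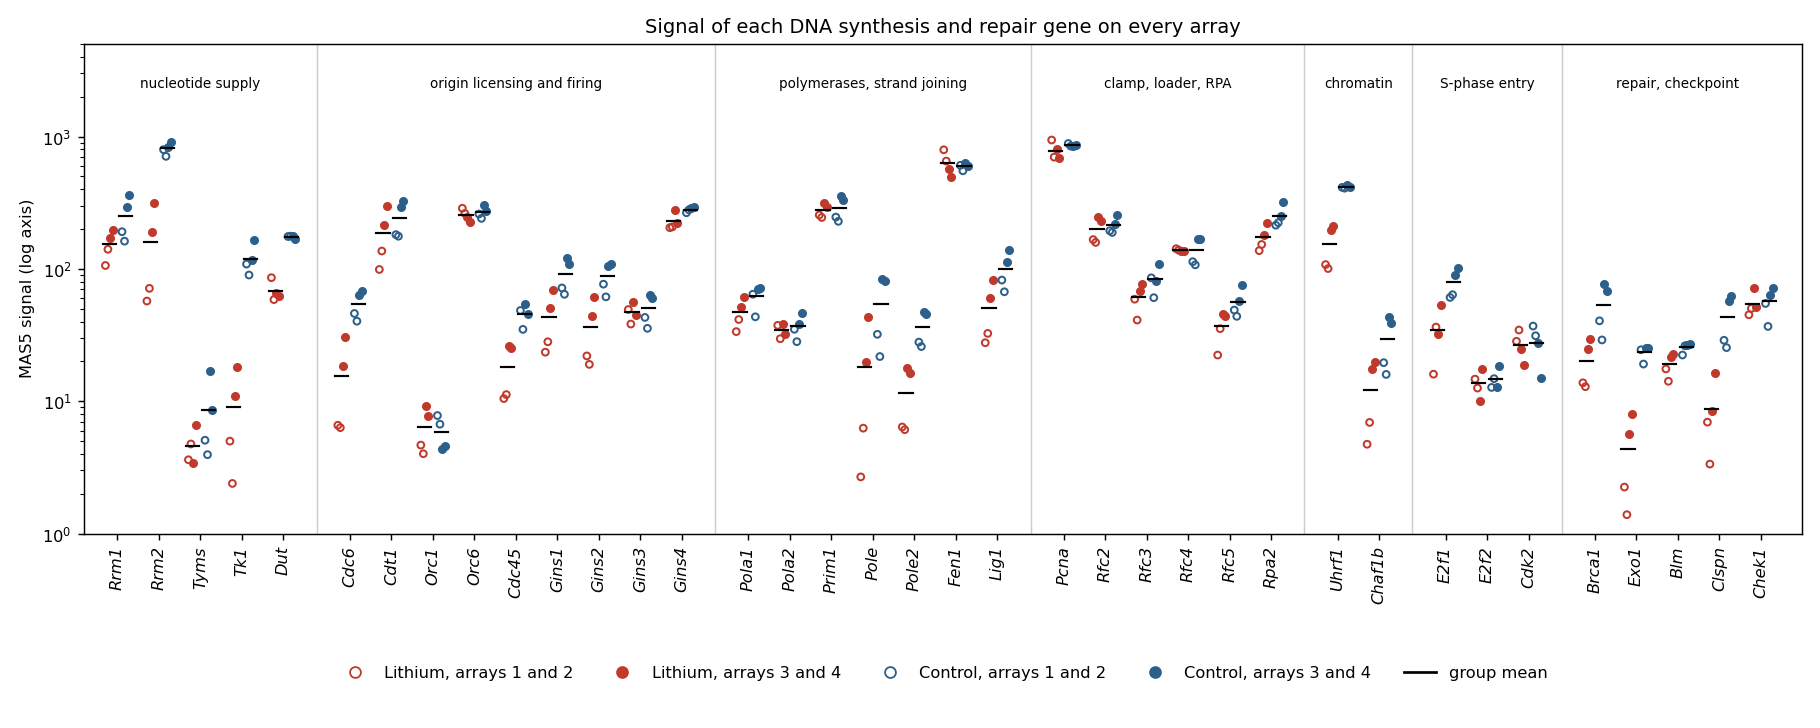
MAS5 signal (log axis) of the 37 genes on each of 8 arrays, grouped by role, with lithium in red left of control in blue, open circles for arrays 1 and 2, filled circles for arrays 3 and 4, and black bars for the group means. Signals of Tk1 lie between 2.39 and 18.01 in lithium and between 89.8 and 164 in control, whereas those of Fen1, Pcna and Orc6 overlap between the groups.

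When the replicate number was used as a block, 0 of the 37 members were called lower, against 0.346% of all genes, while 9597 of all probe sets had an unadjusted p under 0.05. The adjusted p from limma was then 0.055 for Dut, 0.0619 for Tk1 and 0.0857 for Uhrf1. With a term that separates arrays 1 and 2 from arrays 3 and 4 instead, 15 members were called lower, against 5.71% of all genes. Median centring of the arrays gave 8 members (2.36% of all genes), log2 of the signal plus 16 also gave 8 (3.47% of all genes), and a level of 200 before the test gave 2 of 11 members (5.21% of the genes tested there). Of the 3 calls, that of Dut held whichever of the 8 arrays was left out. Tk1 passed without lithium array 2 (adjusted p = 0.0438 from limma) and without lithium array 4 (0.0344), and reached 0.0870 without control array 4. Uhrf1 passed only without lithium array 4 among these fits (0.0439), and its adjusted p from limma reached 0.106 without control array 4.

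**Figure D2:**
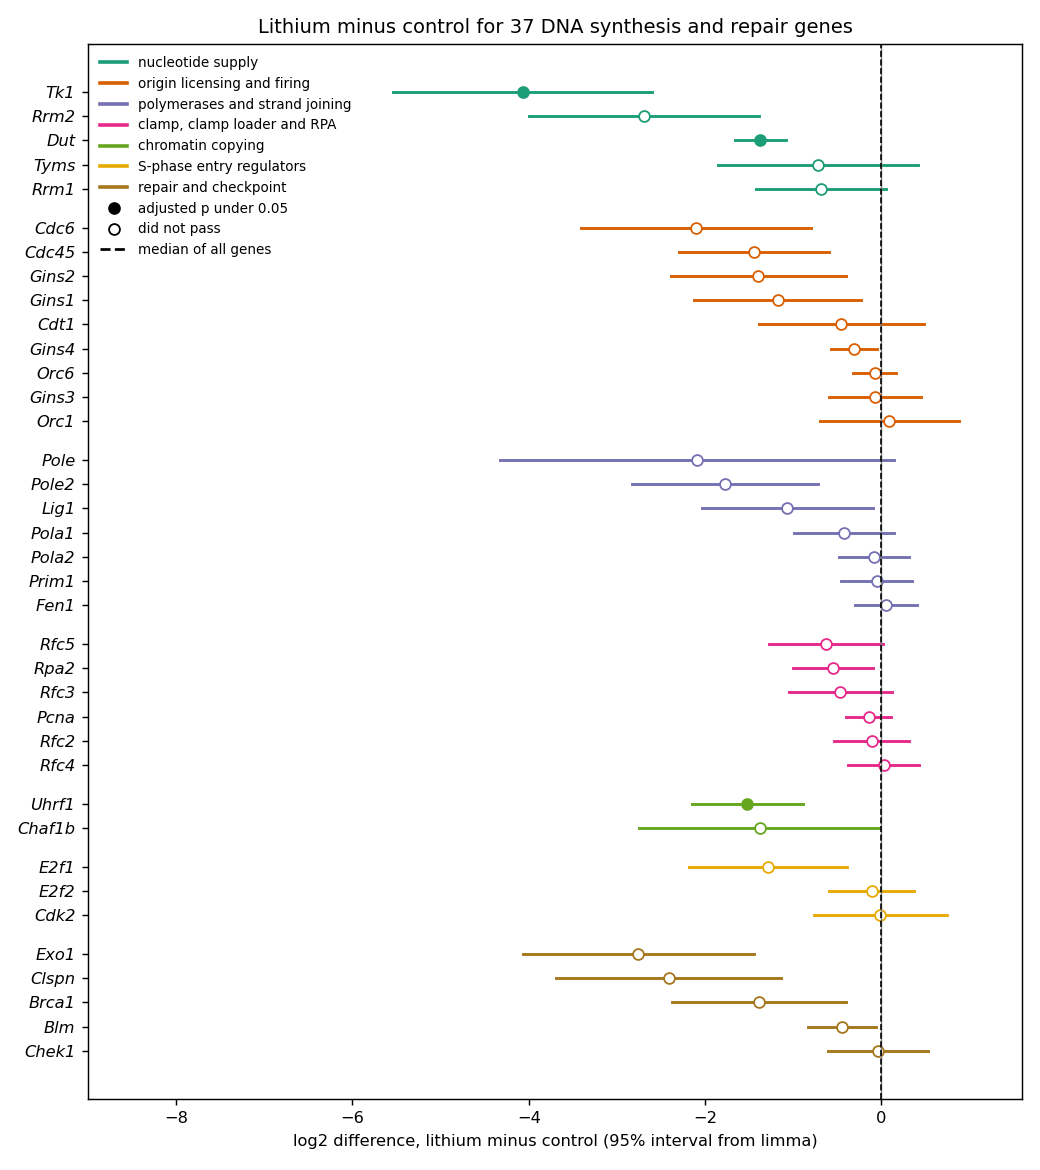
Log2 difference, lithium minus control, of the 37 genes with the 95% interval from limma, coloured by role and ordered within each role, with filled points for an adjusted p under 0.05. The dashed line is the median of all genes. Tk1 stands lowest at -4.07, and the 3 filled points are Tk1, Dut and Uhrf1.

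The promoters of the members were read to see which letters they share. Windows of 300 bases, from 250 before to 50 after a RefSeq transcription start (GRCm38.p6), were given for 32 of the 38 members. There were 37 windows, and 4 members had more than 1. Gins1, Gins2, Gins4, Pole, Rfc2 and Exo1 had none. An 8-letter E2F motif, spelled TTTCCCGC, TTTCGCGC, TTTGCCGC or TTTGGCGC on either strand, was found in 12 of the 32 members (37.5%), and in 2.6% of 27025 genes and 3.29% of protein-coding genes with such windows. Of its 13 matches, 9 began within 50 bases of the start. Related lists held it too, with 4 of 6 MCM helicase genes (66.7%) and 5 of 13 genes of E2F factors, RB proteins and G1/S cyclins (38.5%). It was in 5 of 23 other replication factors (21.7%), 2 of 25 mitosis genes (8%) and 0 of the 5 nucleotide supply genes. The 7 letters left when the first T is dropped, which every 8-letter match also holds, were found in 23 of the 32 members (71.9%) and in 10.9% of all genes. The wording with 8 letters was chosen for display after both had been run.

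Stretches of 30 bases around the motif follow for 4 members with a log2 difference under -1 and for 3 members near 0, since both sets carry it. Each is written 5′ to 3′ on the strand of its gene, and capitals mark the motif or its reverse complement. The Uhrf1 stretch lies in the window of a later start, and the window of the earlier start held only the 7 letters. The stretches of Cdc6 and Orc1 lie downstream of the first annotated bases of these genes, 98907709 and 108575705, by starts inside the gene.
Cdc6 (chr11:98908002-98908031, plus strand): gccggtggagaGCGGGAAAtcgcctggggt
Pole2 (chr12:69228162-69228191, minus strand): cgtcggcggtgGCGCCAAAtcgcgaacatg
Clspn (chr4:126556990-126557019, plus strand): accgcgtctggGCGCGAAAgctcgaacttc
Uhrf1 (chr17:56304117-56304146, plus strand): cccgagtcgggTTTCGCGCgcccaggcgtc
Orc1 (chr4:108579416-108579445, plus strand): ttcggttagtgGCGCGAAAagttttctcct
Gins3 (chr8:95633507-95633536, plus strand): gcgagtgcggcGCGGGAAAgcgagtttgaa
Cdk2 (chr10:128705173-128705202, minus strand): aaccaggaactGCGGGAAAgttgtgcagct
Clspn and Orc1 hold the same 8 letters, with log2 differences of -2.41 and 0.09. That of Orc1 rests on signals of only 4.01 to 9.19, near background. Another probe set of Orc1, dimmer over all arrays though brighter in control, had its lithium values under background and was at -2.07. Cdc6, Gins3 and Cdk2 also hold the same 8 letters as one another, with log2 differences of -2.10, -0.07 and -0.01. Over the measured members with a window, the median log2 difference was -0.46 for the 12 with the 8-letter motif, 5 of them under -1. It was -0.63 for the 19 without the 8 letters, 7 of them under -1. Some of these 19, such as Rrm1, Rrm2 and Brca1, hold the 7 letters, so the split does not set an E2F motif against none. Whether the motif bears on the differences was not tested. A match is a description of letters and not a bound site. The letters TTTGAA of the CHR element, known from promoters of mitotic genes, were in the windows of 4 of the 32 members (12.5%), 19 of 25 mitosis genes (76%) and 20.2% of all genes. CCAAT was in 18 of the 32 members (56.2%) and in 41.1% of all genes.

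Among the nucleotide supply genes, all 5 had lower mean log2 signals in lithium (50.3% of all genes), with a median log2 difference of -1.37. The test was passed by 2, against 2.05% of all genes called lower. Tk1 encodes the cytosolic thymidine kinase that salvages thymidine in S phase. Its signals were 4.99, 2.39, 10.9 and 18.01 in lithium arrays 1 to 4, against 109, 89.8, 116 and 164 in control arrays 1 to 4. The groups lay far apart, and lithium arrays 1 and 2 had the lowest values. Tk1 averaged 9.07 ± 6.94 in lithium and 120 ± 31.5 in control (SD, n = 4 each), which is 7.58% of control and a log2 difference of -4.07 (standard error 0.62, adjusted p = 0.0314 from limma). The signal of lithium array 2 lay under the highest poly-A control signal of the same array, a level of 3.99 that stands for background, so that the fold depends on values near it, and on the log2 scale of the signal plus 16 the difference was -2.45.

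Dut, the dUTPase that keeps uracil out of DNA, had 85.8, 58.6, 65.8 and 62.5 in lithium arrays 1 to 4 and 176, 177, 178 and 169 in control arrays 1 to 4. The control arrays hardly varied, and all lithium arrays lay under them. Dut averaged 68.2 ± 12.1 in lithium and 175 ± 4.16 in control (SD, n = 4 each; log2 difference -1.37, standard error 0.12, adjusted p = 0.0133 from limma). A dimmer probe set of Dut had a log2 difference of -0.37 with overlapping groups (adjusted p = 0.449 from limma). Rrm2 and Rrm1 encode the small and large subunits of ribonucleotide reductase, of which the small one is limited to S phase. The Rrm2 signals were 57.1, 71.2, 191 and 317 in lithium arrays 1 to 4 and 796, 708, 834 and 910 in control arrays 1 to 4, and it is singled out here after its values were seen. They did not overlap, with a log2 difference of -2.69 (standard error 0.55), but limma's adjusted p was 0.0608 and did not pass. The other probe sets of Rrm2 were lower too, with log2 differences of -3.43 and -3.28 (adjusted p = 0.0412 and 0.0201 from limma). Rrm1 had 106, 141, 170 and 196 in lithium arrays 1 to 4 and 191, 162, 295 and 364 in control arrays 1 to 4. Its groups overlapped, and the log2 difference of -0.68 (95% interval -1.42 to 0.05) did not pass.

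Tyms, thymidylate synthase, could not be read from its own probe set, which averaged 4.61 in lithium and 8.60 in control and lay under the poly-A control level on 3 arrays (log2 difference -0.72, adjusted p = 0.51 from limma). A brighter probe set is annotated to Tyms and to its pseudogene Tyms-ps, so that their transcripts cannot be told apart. It averaged 71.8 ± 18.7 in lithium and 252 ± 63.5 in control (SD, n = 4 each; log2 difference -1.81, adjusted p = 0.0235 from limma).

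Of the 9 genes of origin licensing and firing, 0 passed the test, and the median log2 difference was -0.45. In 3 of them every lithium value lay below every control value (8.92% of all genes). Cdc6 loads the helicase onto origins. It had 6.58, 6.32, 18.5 and 30.6 in lithium arrays 1 to 4 and 46.0, 40.2, 63.4 and 68.3 in control arrays 1 to 4. Every lithium value lay below every control value, and in both groups arrays 3 and 4 were the higher ones (log2 difference -2.10, standard error 0.55, adjusted p = 0.108 from limma). Cdc45, a subunit of the active helicase, had 10.5, 11.2, 26.2 and 25.0 in lithium arrays 1 to 4 and 48.5, 34.9, 54.2 and 45.6 in control arrays 1 to 4. These did not overlap either, with a log2 difference of -1.44 (standard error 0.36, adjusted p = 0.0958 from limma).

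The 4 GINS genes, which encode the complex that joins Cdc45 on the helicase, did not move alike. Gins2 had a log2 difference of -1.39 with groups that did not overlap (adjusted p = 0.142 from limma), and its other probe set passed at -1.94 (adjusted p = 0.0413). Gins1 was at -1.17 with overlapping groups. Gins4 was at -0.31 (95% interval -0.57 to -0.05), and Gins3 at -0.07 (95% interval -0.59 to 0.45). None of these 4 passed on the probe set taken for the gene.

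Orc1 and Orc6 belong to the origin recognition complex. Orc1 had 4.66, 4.01, 9.19 and 7.74 in lithium arrays 1 to 4 and 7.80, 6.71, 4.35 and 4.55 in control arrays 1 to 4. Lithium was lower in arrays 1 and 2 and higher in arrays 3 and 4, and the log2 difference was 0.09 (95% interval -0.70 to 0.88). On lithium arrays 1 and 2 these signals lay close to the poly-A control levels of 4.33 and 3.99. A probe set of Orc1 that was dimmer over all arrays went the other way, with 1.85 ± 1.31 in lithium and 7.86 ± 1.79 in control (SD, n = 4 each; log2 difference -2.07, adjusted p = 0.0504 from limma). In control it was the brighter one, since the probe set taken averaged 5.85 there. All lithium values of the probe set not taken lay under the poly-A control level, and set against that level its log2 difference was -0.98. Orc6 was at -0.07 (95% interval -0.32 to 0.17), and Cdt1, which loads the helicase together with Cdc6, was at -0.45 (95% interval -1.39 to 0.48).

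Of the 7 polymerase and strand-joining genes, 0 passed, and the median log2 difference was -0.43. Pole2, the second subunit of the leading-strand polymerase epsilon, had 6.39, 6.10, 17.7 and 16.3 in lithium arrays 1 to 4 and 28.0, 25.9, 47.0 and 45.9 in control arrays 1 to 4. The groups did not overlap, and arrays 3 and 4 were above arrays 1 and 2 in each (log2 difference -1.78, standard error 0.45, adjusted p = 0.0966 from limma). Pole, its catalytic subunit, had a log2 difference of -2.09, but its lithium signals ran from 2.68 to 43.5 and overlapped with the control range of 21.8 to 83.9 (95% interval -4.32 to 0.14). Its signal on lithium array 1 lay under the poly-A control level, and the difference on log2 of the signal plus 16 was -1.08. Lig1, the ligase that seals Okazaki fragments, had 27.7, 32.5, 60.5 and 82.2 in lithium arrays 1 to 4 and 82.3, 67.1, 112 and 139 in control arrays 1 to 4. Of these lithium values only that of array 4 lay above a control value, that of array 2, with a log2 difference of -1.07 (adjusted p = 0.236 from limma).

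Fen1, the flap endonuclease that trims Okazaki fragments, had 794, 652, 571 and 490 in lithium arrays 1 to 4 and 606, 551, 629 and 594 in control arrays 1 to 4. Lithium spread on both sides of control, and the log2 difference was 0.05 (95% interval -0.30 to 0.41). The 3 genes of the primase and polymerase alpha complex, which starts new strands, had log2 differences of -0.43 for Pola1, -0.08 for Pola2 and -0.05 for Prim1. None of these 3 passed, and the interval of Prim1 ran from -0.46 to 0.35.

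Among the genes of the clamp, the clamp loader and the single-strand binding protein, 0 of 6 passed, all groups overlapped, and no log2 difference was under -1. Pcna, the sliding clamp and a common marker of proliferating cells, averaged 784 ± 119 in lithium and 859 ± 17.98 in control (SD, n = 4 each), with a log2 difference of -0.14 (95% interval -0.40 to 0.11). It is named here after its values were seen. Rfc5 of the clamp loader had 22.3, 35.3, 45.6 and 44.0 in lithium arrays 1 to 4 and 48.8, 43.8, 56.7 and 74.9 in control arrays 1 to 4, of which lithium arrays 3 and 4 lay above control array 2 (log2 difference -0.63, adjusted p = 0.291 from limma). Rfc4, of the same loader, had 142, 139, 137 and 137 in lithium arrays 1 to 4 and 113, 107, 167 and 169 in control arrays 1 to 4. Its lithium values lay between the low and the high control arrays, and the log2 difference was 0.03 (95% interval -0.37 to 0.43). The other loader genes were at -0.46 for Rfc3 and -0.11 for Rfc2. Rpa2, a subunit of the protein that covers single-stranded DNA, had 137, 153, 180 and 223 in lithium arrays 1 to 4 and 214, 223, 250 and 321 in control arrays 1 to 4. Only lithium array 4 reached into the control range, and the log2 difference of -0.55 (standard error 0.19, adjusted p = 0.199 from limma) did not pass.

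Both measured genes of chromatin copying had lower mean log2 signals in lithium (50.3% of all genes), and 1 passed (2.05% of all genes were called lower). Uhrf1 binds hemimethylated DNA behind the fork and brings in the maintenance methyltransferase. Its signals were 108, 101, 195 and 211 in lithium arrays 1 to 4 and 413, 407, 431 and 417 in control arrays 1 to 4. The control values varied little, whereas lithium arrays 3 and 4 were well above lithium arrays 1 and 2. Uhrf1 averaged 154 ± 57.5 in lithium and 417 ± 10.2 in control (SD, n = 4 each; log2 difference -1.52, standard error 0.26, adjusted p = 0.0404 from limma). A dimmer probe set of Uhrf1 was at -1.58 with overlapping groups (adjusted p = 0.142 from limma). Chaf1b, a subunit of the chaperone that places new histones, had 4.73, 6.91, 17.5 and 19.7 in lithium arrays 1 to 4 and 19.6, 15.9, 43.1 and 38.9 in control arrays 1 to 4. The highest lithium values reached the lowest control values, and the log2 difference of -1.38 (adjusted p = 0.273 from limma) did not pass.

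Of the regulators of S-phase entry, E2f1 encodes an activating E2F factor. It had 16.01, 36.3, 32.3 and 53.3 in lithium arrays 1 to 4 and 60.8, 63.8, 90.4 and 101 in control arrays 1 to 4. The groups did not overlap, with a log2 difference of -1.29 (standard error 0.38, adjusted p = 0.137 from limma). E2f2, of the same class, had 14.7, 12.6, 10.1 and 17.7 in lithium arrays 1 to 4 and 12.7, 14.8, 12.8 and 18.6 in control arrays 1 to 4, which overlapped throughout (log2 difference -0.11, 95% interval -0.59 to 0.37). Cdk2, the kinase that fires origins with cyclins E and A, had 28.4, 34.5, 24.9 and 18.9 in lithium arrays 1 to 4 and 36.98, 31.2, 27.5 and 14.9 in control arrays 1 to 4. In both groups array 4 was the lowest, and the log2 difference was -0.01 (95% interval -0.76 to 0.74). None of these 3 passed.

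Of the 5 genes of replication repair and the S-phase checkpoint, 0 passed, and the median log2 difference was -1.39. In 2 of them every lithium value lay below every control value (8.92% of all genes). Exo1, an exonuclease of mismatch and double-strand break repair, had 2.25, 1.39, 5.70 and 7.96 in lithium arrays 1 to 4 and 24.5, 19.1, 25.1 and 25.1 in control arrays 1 to 4. The lithium values lay far under the control values, 2 of them under the poly-A control level of their arrays (log2 difference -2.76, standard error 0.55, adjusted p = 0.0574 from limma). For Exo1 the difference on log2 of the signal plus 16 was -0.97 (adjusted p = 0.0090). Clspn encodes claspin, which passes the stalled-fork signal on to Chek1. It had 6.95, 3.35, 8.51 and 16.4 in lithium arrays 1 to 4 and 28.9, 25.4, 57.2 and 62.2 in control arrays 1 to 4. These did not overlap, with a log2 difference of -2.41 (standard error 0.54, adjusted p = 0.0757 from limma). The signal of Clspn on lithium array 2 lay under the poly-A control level, and on log2 of the signal plus 16 the difference was -1.23 (adjusted p = 0.0427).

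Chek1, the checkpoint kinase itself, had 45.0, 50.3, 71.1 and 51.6 in lithium arrays 1 to 4 and 54.8, 36.8, 63.9 and 71.7 in control arrays 1 to 4. The groups were mixed, and the log2 difference was -0.04 (95% interval -0.61 to 0.53). Brca1, a scaffold of homologous recombination, had a log2 difference of -1.39 with groups that overlapped (adjusted p = 0.142 from limma). Blm, a helicase that resolves recombination intermediates, was at -0.45 (adjusted p = 0.213).

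Besides the 37 probe sets taken, the members had 42 other probe sets with their symbol alone, spread over 28 members. Of these, 3 were called lower (1.39% of all probe sets were), 0 were called higher (0.944% of all probe sets were), 30 had a lower mean log2 signal in lithium (46.4% of all probe sets did), and in 10 every lithium value lay below every control value (6.44% of all probe sets). The 3 calls were those of Rrm2 and Gins2 given above.

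Arrays 1 and 2 differed from arrays 3 and 4 in both groups for many members. Lithium arrays 3 and 4 were both above lithium arrays 1 and 2 for 26 of 37 members (32.5% of all genes), and the same held among control arrays for 29 of 37 (28.7% of all genes). In both groups at once it held for 23 of 37, against 16% of all genes. The labels do not say what sets these arrays apart. Within arrays 1 and 2 the lithium minus control difference was below 0 for 30 members, with a median of -0.62, and within arrays 3 and 4 for 34 members, with a median of -0.54. Shares of all genes were not counted within the pairs. Of the 16 members under -1, 13 were under -1 within both pairs of arrays and 14 were nearer 0 in arrays 3 and 4. The difference over all arrays is the mean of those within the pairs. The count under -1 in both therefore follows in part from how the 16 were picked and is no replication. The medians of these 16 were -1.95 in arrays 1 and 2 and -1.42 in arrays 3 and 4. Within either pair alone, with 2 arrays against 2, 0 members were called by limma, as were 0 of all probe sets, of which 8285 in arrays 1 and 2 and 7787 in arrays 3 and 4 had an unadjusted p under 0.05.

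**Figure D3:**
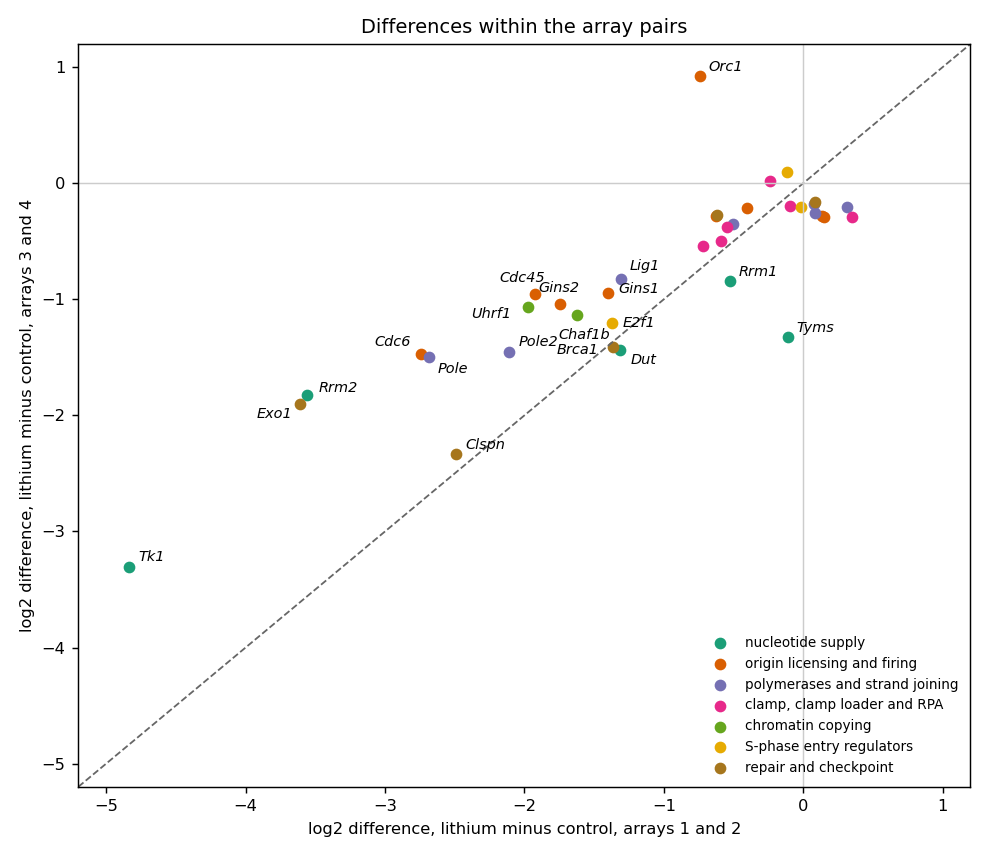
Log2 difference, lithium minus control, of each of the 37 genes within arrays 1 and 2 (horizontal axis) and within arrays 3 and 4 (vertical axis), coloured by role, with the dashed line where both are equal. Most of the 16 genes under -1 lie above the line, nearer 0 in arrays 3 and 4, and Orc1 has opposite signs in the 2 pairs.

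Other genes of the same processes were described from lists of 161 measured genes. Of these, 22 were called lower (2.05% of all genes) and 0 higher (1.18% of all genes). Of the 7 MCM helicase genes, Mcm7 fell (log2 difference -1.24, adjusted p = 0.0266 from limma), and the median was -0.97. Of 29 other replication factors, 3 fell and the median was -0.20. Pold4, a small subunit of polymerase delta, fell to 225 ± 26.1 in lithium, against 488 ± 66.5 in control (SD, n = 4 each; adjusted p = 0.0164 from limma). Dbf4, the activator of the origin-firing kinase Cdc7, fell to 19.3 ± 1.69 in lithium, against 49.4 ± 12.6 in control (SD, n = 4 each; adjusted p = 0.0201 from limma). The third was Topbp1, an activator of the checkpoint kinase ATR (log2 difference -1.14). Of 20 genes of E2F factors, RB proteins and G1/S cyclins, 3 fell, namely Ccna2, which encodes cyclin A2 (-3.18), and the repressors E2f7 (-2.95) and E2f8 (-3.19), with adjusted p-values from limma of 0.0199, 0.0285 and 0.0377. The median of that list was -0.20.

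Among 22 other replication-linked repair genes and 10 genes of S-phase chromatin and histone supply, 0 genes were called in either direction. The same held for 15 nucleotide enzymes used outside S phase, 18 repair genes outside replication and 13 p53 and DNA damage targets. At an unadjusted p under 0.05 these lists held, in this order, 8, 4, 2, 3 and 1 lower genes, against 12.6% of all genes. Genes with every lithium value above every control value numbered 2, 0, 0, 3 and 0, against 6.47% of all genes. Those with every lithium value below every control value numbered 5, 2, 1, 2 and 0, against 8.92% of all genes. The medians of these lists were -0.25, -0.15, -0.08, -0.12 and 0.03. Rrm2b, the p53-inducible ribonucleotide reductase subunit, averaged 470 ± 102 in lithium and 501 ± 126 in control (SD, n = 4 each; log2 difference -0.08), and is singled out after its values were seen. Of 27 mitosis genes 15 fell, against 2.05% of all genes, and the median log2 difference was -3.0. All 27 had every lithium value below every control value, against 8.92% of all genes. The lowest adjusted p-values were those of Prc1, a spindle midzone protein (-3.18, 0.0104), of Ube2c, the ubiquitin-conjugating enzyme of the anaphase promoting complex (-3.72, 0.0133), and of Cep55, a protein of the midbody (-2.32, 0.0133).

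**Figure D4:**
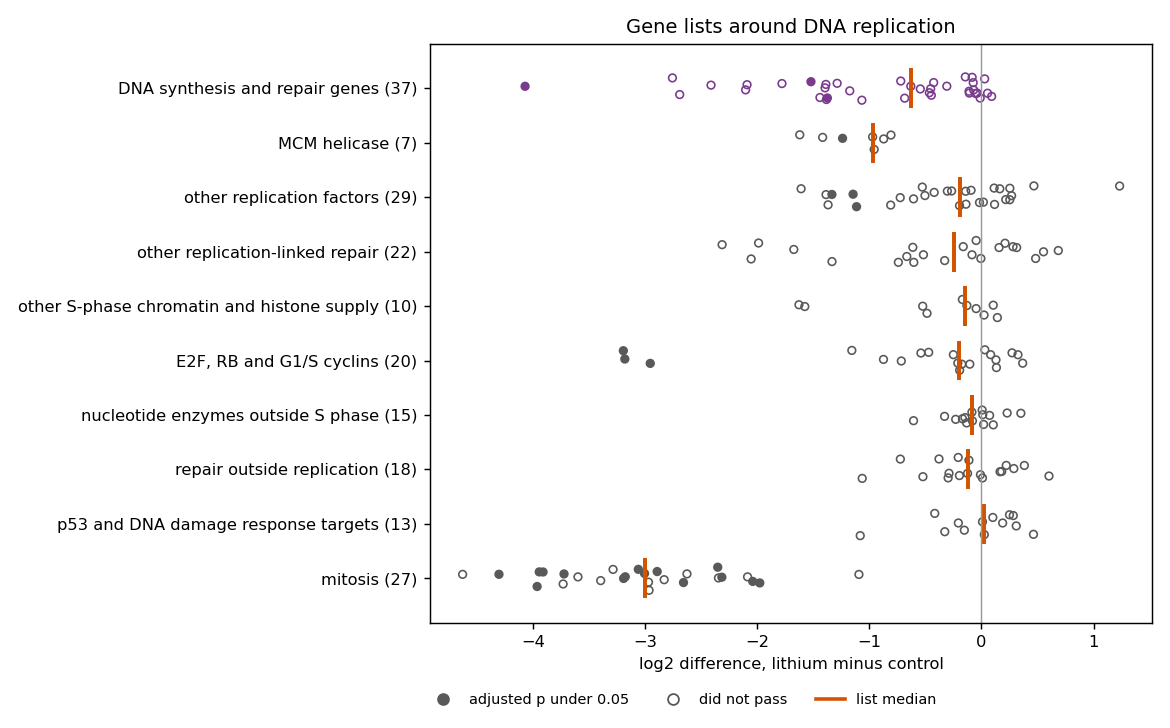
Log2 difference, lithium minus control, of single genes (points, filled at an adjusted p under 0.05) in the 37 DNA synthesis and repair genes and in 9 lists around DNA replication, with list medians in orange and the number of measured genes in brackets. Medians run from 0.03 for p53 and DNA damage response targets to -3.0 for mitosis, and that of the 37 genes is -0.63.

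Markers of the cell types in the nerve were read beside these values. Of 9 astrocyte markers, 0 passed (median log2 difference 0.02), and their summed signal was 7303 to 8632 in lithium and 7664 to 7966 in control. For 8 oligodendrocyte and 7 oligodendrocyte precursor markers, 0 passed, with medians of 0.05 and 0.08. Among the precursor markers, every lithium value lay below every control value for Pdgfra (208 ± 117 in lithium and 527 ± 83.5 in control, SD, n = 4 each, log2 difference -1.52) and Bcan (-1.36), and above for Olig2 (0.77). Pdgfra stands in the fibroblast list too. Of the fibroblast markers 3 of 9 were called lower (Col3a1, Lum and Foxc1), against 2.05% of all genes. The fibroblast markers had a median of -1.62 and summed signals of 885 to 2538 in lithium and 3782 to 5956 in control. Their median was -2.10 within arrays 1 and 2 and -1.29 within arrays 3 and 4. Neutrophil markers had 3 of 7 called lower (S100a8, Ltf and Camp), a median of -1.81 and summed signals of 49.8 to 84.1 in lithium and 393 to 609 in control, while Mpo and Elane, transcribed mainly in neutrophil precursors, averaged under 2 in both groups. S100a9, abundant in mature neutrophils, averaged 5.65 ± 5.90 in lithium and 12.5 ± 4.80 in control (SD, n = 4 each) with overlapping groups. Of 8 pericyte and smooth muscle markers 1 was called lower (Pdgfrb), of 8 endothelial markers 1 (Kdr) and of 10 microglia and macrophage markers 1 (Tyrobp), with medians of -0.77, -0.47 and -0.25. Of 11 retina and neuron markers 1 was called higher (Tubb3), with a median of 0.00, and 6 had a lower mean log2 signal (50.3% of all genes). Thy1 of this list was not called, but every lithium value lay below every control value (46.6 ± 3.27 in lithium and 113 ± 47.0 in control, SD, n = 4 each, log2 difference -1.19). The part of these cell types in the values of the 37 genes was not tested.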

How the data were processed

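The authors processed 8 Affymetrix Mouse 430 2.0 arrays with the MAS5 algorithm in GeneSpring, and the deposited values are linear intensities, 1 per probe set and array. A baseline transformation named in the paper is not seen in these intensities. Detection calls were not used here. Of 45101 probe sets, 64 controls were left out, and 34945 of the rest had 1 gene symbol. Intensities were floored at 1, which applied to 14.5% of the values, and taken to log2. Lithium and control (4 arrays each) were compared in limma 3.58.1 (R 4.3.3) by lmFit and eBayes, with no block and with Benjamini-Hochberg adjustment over 45037 probe sets. The fit was tested on simulated data with independent arrays and shifts in brighter probe sets only, so that this does not cover array pairs or dim genes. The highest signal of 27 poly-A control probe sets on each array, 2.13 to 5.64, was taken as background. The members and lists were chosen with earlier results of these data known.

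Array values are given for called members and, in each role, for the 2 members with the lowest p and the 1 with the highest difference. From each other list up to 2 called genes per direction were named. Topbp1, E2f8, the called markers, Pdgfra, Bcan, Olig2, Thy1, S100a9, Mpo, Elane, Rrm2b, Rrm2, Pcna and other members given in passing were named after their values were seen. The replicate numbers were taken as pairs from the data alone, since arrays of the same number deviated together from the means of their groups (r of 0.130 to 0.197, over a limit of 0.1). For unlike numbers within arrays 1 and 2 or within 3 and 4, r was 0.071 to 0.132, which also passes this limit in part. Between arrays 1 and 2 on one side and 3 and 4 on the other it was -0.181 to -0.0665. These values do not set pairs by replicate number clearly apart from the split of arrays 1 and 2 against 3 and 4. Alternatives were quantile normalization, median centring, log2 of the signal plus 16, a level of 200 in the higher group, averaging the probe sets of a gene, no _x_at probe sets, a trended and robust prior, array weights, the replicate block, a term for the array pairs, fits within these pairs, and each array left out. Python 3.11.15 with matplotlib 3.10.9 drew the figures.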

Additional observations from a re-analysis of the deposited data

Results flagged for a closer look

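Of 74 groups of 4 arrays examined, 1 for each member and condition, 2 held an array that stood apart from the other 3 by more than Dixon's ratio allows at 95%. Chance flags about 1 in 20 groups. Control array 2 was lowest for Exo1, with a signal of 19.1 where the other control arrays had 24.5 to 25.1 (ratio 0.903). Control array 1 was lowest for Blm, with a signal of 22.3 where the other control arrays had 26.2 to 27.1 (ratio 0.838).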

How the results depend on the processing

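Of the 37 members 3 were called lower, and this number was 5 with quantile normalization, 8 with median centring, 8 with log2 of the signal plus 16, 6 with a trended and robust prior, 0 with the replicate block, 15 with a term for arrays 1 and 2 against 3 and 4, 0 within arrays 1 and 2, 0 within arrays 3 and 4, and 1 to 5 when 1 array was left out. With quantile normalization the added calls were Exo1 and Rrm2. With median centring Cdc45, Clspn and Pole2 were added to these. At a level of 200 in the higher group 11 members were tested and 2 called, Rrm2 and Uhrf1. No member was called higher under any of these alternatives. Calls over all probe sets moved too. Of 45037 probe sets, 625 were called lower at first, 786 with quantile normalization and 730 with median centring. Log2 of the signal plus 16 gave 1036, the trended and robust prior 893, the replicate block 104 and the term for the array pairs 1764. Leaving 1 array out gave 98 to 412. At a level of 200 it was 385 of 8401 probe sets. The 22 calls among the 161 genes of the other lists became 34 with log2 of the signal plus 16, 8 at a level of 200, 9 with the replicate block, 48 with the term for the array pairs, 0 and 0 within the pairs, and 4 to 15 when 1 array was left out. Their calls in the other direction, 0 at first, were 2 with quantile normalization, 1 each with median centring, log2 of the signal plus 16 and averaged probe sets of a gene, 4 with the term for the array pairs, and 0 whichever array was left out. Of all probe sets, 425 were called higher at first, 610 with quantile normalization and 391 with median centring. Log2 of the signal plus 16 gave 699 and the term for the array pairs 1070. The median of the nucleotide supply genes, -1.37, moved to -1.29 with median centring, -1.19 with log2 of the signal plus 16, -1.69 at a level of 200 and -0.87 with averaged probe sets of a gene, and ran from -1.49 to -1.31 when 1 array was left out. The median of all members ranged from -0.74 to -0.46 when 1 array was left out and was -0.31 over the 11 members tested at a level of 200.

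Signs turned for 11 of the 37 members under some alternative, all of them near 0 with all arrays and none called. Gins3, Orc6, Pola2, Prim1 and Rfc2 reached at most 0.153, 0.135, 0.258, 0.0745 and 0.0194. Orc1 was at -0.99 with the mean of its probe sets, -0.74 within arrays 1 and 2, and -0.11 to 0.29 when 1 array was left out. Fen1 was at -0.0335 with array weights, -0.21 within arrays 3 and 4, and -0.0669 to 0.16 when 1 array was left out. Rfc4 was at -0.15 with the mean of its probe sets, -0.29 within arrays 3 and 4, and -0.0861 to 0.13 when 1 array was left out. E2f2 ran from -0.24 to 0.0282 when 1 array was left out. Cdk2 was at 0.0497 with quantile normalization, 0.0755 with median centring, 0.10 within arrays 3 and 4, and -0.28 to 0.15 when 1 array was left out. Chek1 was at 0.0198 with quantile normalization, 0.0489 with median centring, 0.0665 with array weights, 0.0842 within arrays 1 and 2, and -0.23 to 0.0885 when 1 array was left out. The cause was not tested. Signals under the poly-A control level, as for Exo1, Tk1, Tyms, Clspn and Pole, limit how far a difference can be read.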
